A study of Mus musculus with 58 samples.

Results

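AMPA and NMDA receptors are the glutamate-gated ion channels that carry most fast excitatory transmission in the brain, and 10 genes for their subunits were followed here through brain injury in mice with human APOE and 1 or 2 functional copies of Abca1. The members were the rows of the count table with the symbols Gria1, Gria2, Gria3 and Gria4 (AMPA receptors, 4 genes) and Grin1, Grin2a, Grin2b, Grin2c, Grin2d and Grin3a (NMDA receptors, 6 genes). All 10 of 10 were found among 15171 genes and all 10 passed the filter on low counts, the lowest count of any member in any mouse being 29 reads, for Grin2d. Grin3b was not analysed here.

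The study sequenced RNA of cortex and hippocampus, frozen together from a coronal slice at the injury site, from 58 mice of both sexes on the C57BL/6 background. All mice were APOE targeted replacement animals, in which human APOE3 or APOE4 takes the place of mouse Apoe on both chromosomes, so no group carried the mouse gene. The mice were 3 months old at surgery and tissue was taken 14 days later. Sham mice had anesthesia and a craniotomy over the left parietal cortex, and TBI mice also received 1 controlled cortical impact there. The 8 groups were E3/Abca1+/+ (APOE3, 2 functional Abca1 copies; 8 sham and 8 TBI mice), E3/Abca1+/- (APOE3, 1 functional copy; 7 sham and 6 TBI), E4/Abca1+/+ (APOE4, 2 copies; 7 and 7) and E4/Abca1+/- (APOE4, 1 copy; 7 and 8). Each library was a separate mouse.

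An AMPA receptor is built of 4 subunits from the Gria genes, and the edited GluA2 subunit, the product of Gria2, keeps calcium out of the channel. An NMDA receptor needs the GluN1 subunit, made by Grin1, together with GluN2 subunits (Grin2a to Grin2d) or GluN3 subunits (Grin3a). Receptors of GluN1 and GluN2 pass calcium mainly when glutamate binds while the membrane is depolarised. Both receptor classes are concentrated at excitatory synapses of cortex and hippocampus, where GluN2B prevails early in life and GluN2A later.

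Total counts ran from 4421308 to 37877346 reads per mouse. The Abca1+/- libraries were deeper than the Abca1+/+ libraries (median 18871445.5 against 8350020.5, a ratio of 2.26, with 21 of 28 Abca1+/- libraries deeper than every Abca1+/+ library), so that Abca1 copy number and library depth cannot be told apart. Abca1 itself had a lowest, median and highest level of 28.9, 35.3 and 42.4 CPM (read counts scaled to library size by TMM factors) in Abca1+/- sham mice and 33.3, 48.9 and 60.8 CPM in Abca1+/+ sham mice. In TBI mice these levels were 76.1, 115 and 214 CPM with Abca1+/- and 98.7, 142 and 296 CPM with Abca1+/+. Among APOE4 TBI mice the Abca1 groups were not clearly apart, with a median of 130 CPM (mean 138) in E4/Abca1+/- and 121 CPM (mean 156) in E4/Abca1+/+. Markers of the dissected tissue were present, since summed neuron markers (14 genes) lay between 8702.55 and 12735.1 CPM in every mouse. 1 library stood apart, E4/Abca1+/- TBI replicate 8, whose summed hippocampus markers of 245 CPM were the lowest of all 58 mice, against 318 to 524 CPM in the others. Averaged results are therefore also given without it where they change.

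The promoter window of a gene (250 bases before to 50 bases after the start, from RefSeq on GRCm38.p6, the same genome release as the mm10 build named in the submitters' notes) was given for 5 of the 10 members. The windows of Grin1 and Grin2c are shown because these members moved in opposite directions on the scale of all genes. On that scale Grin1 fell after injury in each of the 4 genotypes, and Grin2c was higher when the genotypes were averaged. With libraries scaled to neuron markers (below), the Grin1 call was lost. Capitals mark GGGCGG (GC box) and CACGTG (E-box), searched on both strands, and positions without capitals hold neither.
Grin1, chr2:25319138-25319437, minus strand: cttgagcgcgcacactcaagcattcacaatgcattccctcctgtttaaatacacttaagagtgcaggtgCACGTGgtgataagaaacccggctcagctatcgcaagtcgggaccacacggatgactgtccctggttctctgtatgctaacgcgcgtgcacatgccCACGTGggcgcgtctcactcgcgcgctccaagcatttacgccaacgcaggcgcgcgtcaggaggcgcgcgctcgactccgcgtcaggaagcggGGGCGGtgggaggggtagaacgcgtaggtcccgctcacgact
Grin2c, chr11:115267194-115267493, minus strand: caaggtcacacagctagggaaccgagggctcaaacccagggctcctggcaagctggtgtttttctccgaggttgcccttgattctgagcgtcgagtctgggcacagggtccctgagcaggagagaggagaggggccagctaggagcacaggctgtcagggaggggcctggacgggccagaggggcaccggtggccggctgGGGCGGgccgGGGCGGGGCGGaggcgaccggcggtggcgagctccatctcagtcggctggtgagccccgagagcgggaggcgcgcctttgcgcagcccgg
The Grin1 window held 1 GC box and 2 E-boxes in sequence of 60.7% G and C. The Grin2c window held 3 GC boxes, the last pair of them overlapping by 1 base, and no E-box, in sequence of 70.0% G and C. Over all 32851 windows, 35.7% held a GC box and 7.15% an E-box. The windows of Gria2, Gria4 and Grin2d held neither, and the cyclic AMP response element TGACGTCA, present in 1.79% of all windows, was in none of the 5. A match is a description of the letters and not evidence of binding.

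The members differed widely in level. Per kilobase of transcript, which puts genes of unlike length on 1 scale, the sham mice (n = 29) had mean levels of 134 CPM per kb for Gria1, 84.8 for Gria2, 62.9 for Gria3 and 22.1 for Gria4. The AMPA order Gria1, Gria2, Gria3, Gria4 held in 29 of 29 sham mice between each pair of neighbours. Among the NMDA genes the mean level was 66.5 CPM per kb for Grin1, 8.63 for Grin2c, 7.56 for Grin2a, 4.98 for Grin2b, 3.75 for Grin3a and 1.62 for Grin2d. Neighbours in this order were not always separated, since Grin1 exceeded Gria3 in 24 of 29 sham mice, Grin2c exceeded Grin2a in 22 and Grin2b exceeded Grin3a in 24. With the union of all annotated exons as the length, Grin1 (29.1 CPM per kb) stood below Gria3 (33.1) and Grin2a (1.85) below Grin2b (4.83), so these orders depend on the transcript that is taken to be expressed.

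**Figure D1:**
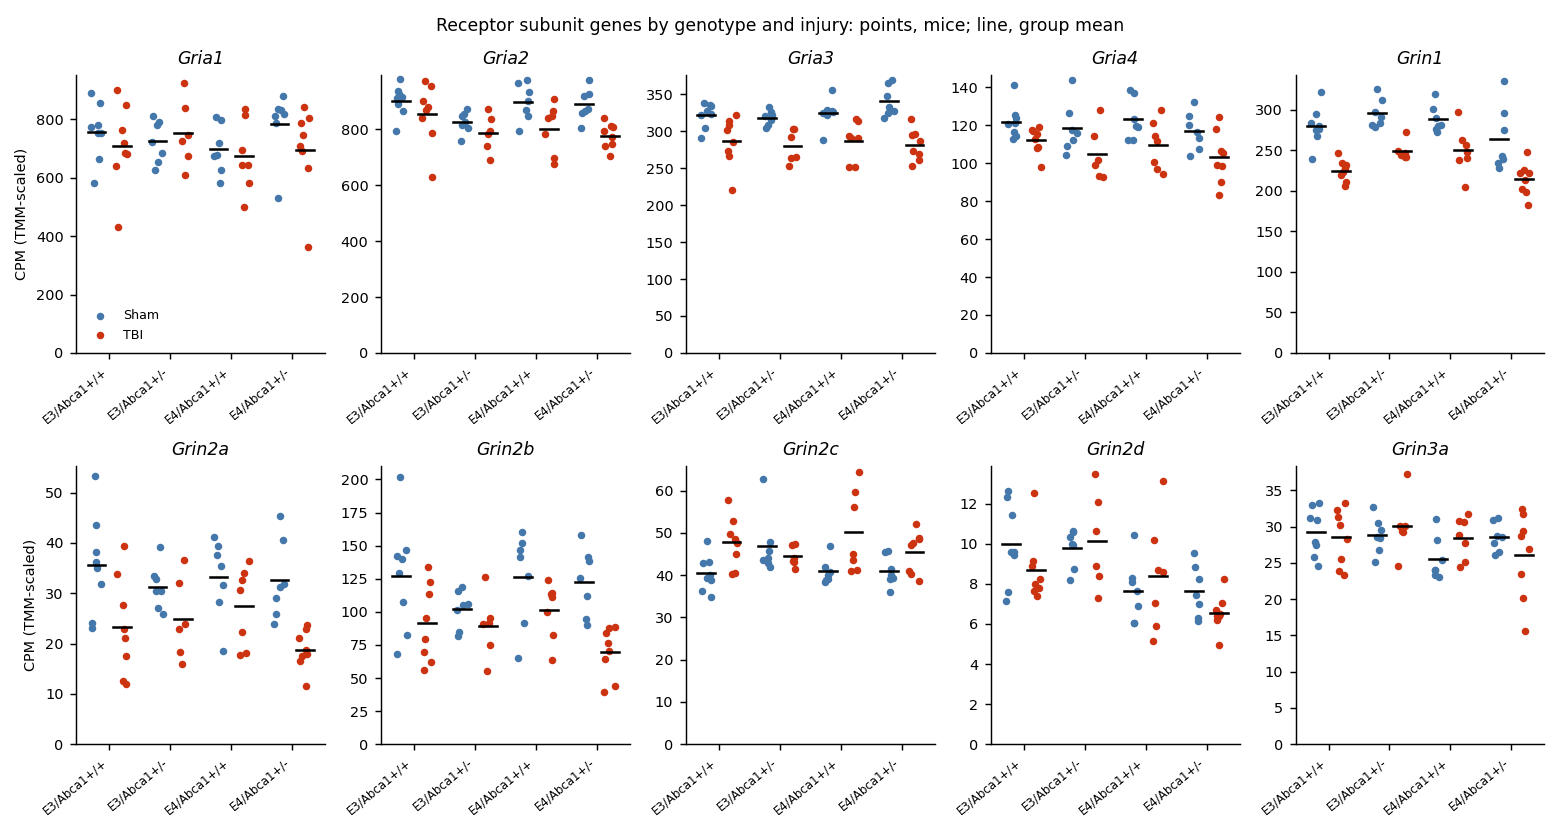
Each panel plots 1 subunit gene, with TMM-scaled CPM on the y axis from 0 and the 4 genotypes on the x axis. Points are mice (blue sham, red TBI) and lines are group means, and in Gria3 every TBI mouse lies below the sham median of its own genotype.

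TBI was compared with sham surgery first as an average over the 4 genotypes (29 TBI and 29 sham mice), to ask whether injury changed the subunit transcripts. Of the 10 members, 7 differed at an adjusted p under 0.05 in edgeR's quasi-likelihood test, 6 lower and 1 higher after TBI, a split that turned to 2 lower and 4 higher when the libraries were scaled to neuron markers. Across all genes 53.3% differed, 29.0% being higher and 24.3% lower. The median log2 fold change was −0.14 over the 10 members and 0.01 over all genes. In bulk tissue, fewer cells of a type and less RNA per cell cannot be told apart.

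Among the AMPA subunits, Gria3 fell most evenly. Gria3, an X-linked gene whose GluA3 subunit pairs mostly with GluA2, ranged from 288 to 369 CPM in sham mice (median 326) and from 221 to 322 CPM in TBI mice (median 291). All 29 of 29 TBI mice were below the sham median of their own genotype, and 20 were below every sham mouse of that genotype. Its log2 fold change was −0.20 (SE 0.03, adjusted p = 3.19e-08, edgeR).

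Gria4, whose GluA4 subunit is abundant in parvalbumin interneurons, had a lowest, median and highest level of 104, 119 and 144 CPM in sham mice and 83.3, 108 and 128 CPM in TBI mice. The distributions overlapped in every genotype, with 24 of 29 TBI mice below the sham median of their own genotype. This gave a log2 fold change of −0.16 (SE 0.04, adjusted p = 0.000223, edgeR).

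Gria2, which sets calcium permeability, ranged from 758 to 978 CPM in sham mice (median 871) and from 627 to 971 CPM in TBI mice (median 808). The groups overlapped broadly, with 24 of 29 TBI mice below the sham median of their genotype but 12 below every sham mouse. Gria2 fell by 0.13 on the log2 scale (SE 0.03, adjusted p = 0.000579, edgeR).

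Gria1, whose GluA1 subunit is the one added to synapses during long-term potentiation, ranged from 529 to 889 CPM in sham mice (median 775) and from 362 to 925 CPM in TBI mice (median 709). It did not pass the test (log2 fold change −0.065, SE 0.063, adjusted p = 0.402, edgeR), and its TBI mice spread to both sides of the sham mice, 5 below and 5 above every sham mouse of their genotype. Without E4/Abca1+/- TBI replicate 8, its lowest mouse, the value was −0.04 (adjusted p = 0.556, edgeR).

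Grin1, the obligatory NMDA subunit, had the smallest p of the 10 members. Its level ran from 228 to 336 CPM in sham mice (median 281) and from 182 to 298 CPM in TBI mice (median 234). Of the 29 TBI mice, 26 were below every sham mouse of their own genotype and 27 below the sham median. Grin1 fell by 0.27 on the log2 scale (SE 0.03, adjusted p = 5.62e-10, edgeR), a fold of 0.831. Grin1 overlaps the antisense gene Grin1os and the gene Lrrc26, and whether counting used the strand is not given in the sources used here, so their reads may not be separated. These neighbours were low, at 0.841 to 6.77 CPM for Grin1os and 0.177 to 2.15 CPM for Lrrc26 over the 58 mice.

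Grin2a and Grin2b, for the main adult and the earlier GluN2 subunit, had the largest fold changes of the 10 members in the average. Grin2a had a lowest, median and highest level of 18.5, 31.9 and 53.2 CPM in sham mice and 11.6, 22.4 and 39.3 CPM in TBI mice. Its groups overlapped in 3 of 4 genotypes, with 25 of 29 TBI mice below the sham median of their genotype and 19 below every sham mouse. Grin2a fell by 0.50 on the log2 scale (SE 0.10, adjusted p = 3.32e-05, edgeR). Grin2b ran from 65.2 to 202 CPM in sham mice (median 119) and from 39.7 to 134 CPM in TBI mice (median 87.6). Nearly the whole TBI group, 28 of 29 mice, was below the sham median of its genotype, although only 13 mice were below every sham mouse. The log2 fold change was −0.45 (SE 0.10, adjusted p = 0.00012, edgeR).

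Grin2c, whose GluN2C subunit is best known from cerebellar granule cells and is also expressed by astrocytes and some interneurons, was the only member that rose on the scale of all genes (scaled to neuron markers, Gria1, Gria2 and Grin3a were also higher). It ran from 35.0 to 62.8 CPM in sham mice (median 41.4) and from 38.7 to 64.4 CPM in TBI mice (median 47.1). 25 of 29 TBI mice were above the sham median of their genotype and 12 above every sham mouse, and the groups overlapped in every genotype. The log2 fold change was 0.15 (SE 0.04, adjusted p = 0.00263, edgeR).

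Grin2d, the GluN2D gene of interneurons, and Grin3a, whose GluN3A subunit lowers calcium entry and is most abundant in young animals, did not pass the test. Grin2d ran from 6.04 to 12.6 CPM in sham mice (median 8.73) and from 4.94 to 13.5 CPM in TBI mice (median 7.99), with a log2 fold change of −0.06 (SE 0.07, adjusted p = 0.502, edgeR). Grin3a ran from 23.1 to 33.3 CPM in sham mice (median 28.2) and from 15.6 to 37.3 CPM in TBI mice (median 29.2), with a log2 fold change of 0.0068 (SE 0.05, adjusted p = 0.925, edgeR). For both genes TBI mice lay on either side of the sham mice.

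Neurons and glia changed their share of the RNA at the same time. Summed neuron markers were 12161.9 CPM on average in sham mice (range 11614.0 to 12735.1) and 10506.9 CPM in TBI mice (8702.55 to 11651.0), and 11 of 14 neuron markers fell, 0 rose and 3 did not pass the test. All 8 of 8 astrocyte markers rose (summed 5513.72 to 7052.32 CPM in sham mice, 6912.48 to 11141.5 in TBI mice), as did all 8 of 8 microglia markers (261 to 387 CPM, 465 to 939 CPM). All 6 of 6 excitatory neuron markers fell, against 2 lower and 1 higher scaled to neuron markers. All 8 of 8 interneuron markers fell, against 3 lower and 1 higher on that scale. The part of these changes in the members' results was not tested, but the members could be set on the scale of the neuron markers.

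The libraries were then scaled to the summed counts of the 14 neuron markers, so that a value of 0 means a change equal to that of the sum. It is not the change of each marker, since 6 of the 14 were themselves called higher and 4 lower. The median log2 fold change over all genes moved from 0.01 to 0.22. With this scaling 6 of 10 members were called against 12500 of 15171 genes, so that the members' share was below that of all genes. On that scale the AMPA genes changed sign, at 0.15 for Gria1 (adjusted p = 0.0309, edgeR), 0.085 for Gria2 (0.0132), 0.0091 for Gria3 (0.742) and 0.047 for Gria4 (0.242), all below the shift of all genes. Grin1 had −0.06 (adjusted p = 0.0839, edgeR) and no longer passed. Grin2a at −0.29 (adjusted p = 0.00902, edgeR) and Grin2b at −0.24 (adjusted p = 0.0309) remained lower, Grin2c at 0.36 (adjusted p = 7.45e-09) and Grin3a at 0.22 (adjusted p = 0.000492) were higher, and Grin2d had 0.15 (adjusted p = 0.0760). The lower level of Grin2a and Grin2b thus held on both scales, whereas the calls of Gria3, Gria4 and Grin1 were lost and that of Gria2 turned. Grin2c was higher on both, but this scaling moves values upward, so its rise there adds no support.

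**Figure D2:**
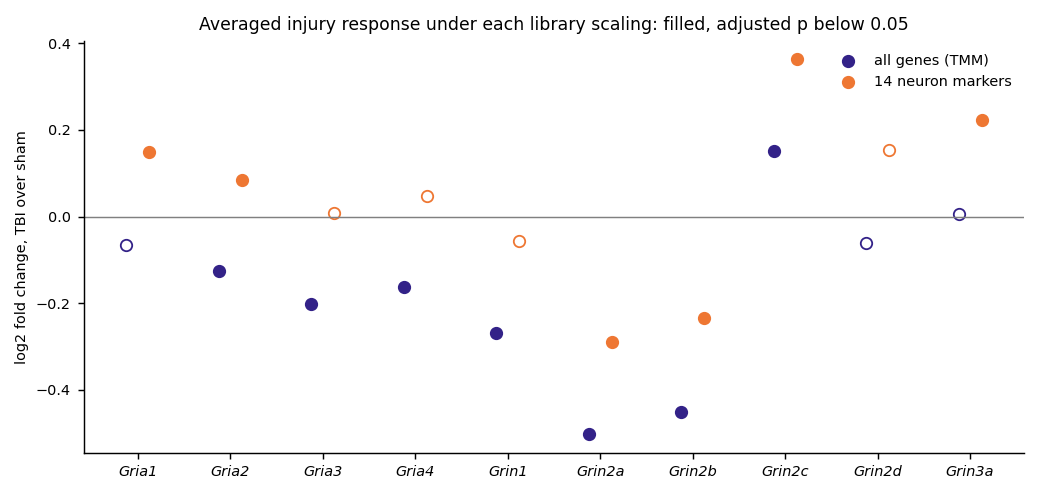
For each member, the log2 fold change of TBI over sham averaged over genotypes is drawn with libraries scaled over all genes (TMM, dark) and to 14 neuron markers (orange). Filled points have an adjusted p below 0.05, and only Grin2a and Grin2b are filled and below 0 on both scales.

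Within genotypes the counts of members called were 4 of 10 in E3/Abca1+/+ (all genes 23.3%), 2 of 10 in E3/Abca1+/- (23.8%), 1 of 10 in E4/Abca1+/+ (14.1%) and 6 of 10 in E4/Abca1+/- (34.0%). The members' median log2 fold change was −0.16, −0.13, −0.17 and −0.23 in that order. Grin1 was the member called in all 4 genotypes.

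In E3/Abca1+/+ mice, Grin1 ran from 240 to 321 CPM in sham mice (median 278) and from 206 to 247 CPM in TBI mice (median 226), and 7 of 8 TBI mice were below every sham mouse. Its log2 fold change was −0.33 (SE 0.05, adjusted p = 0.000105, edgeR). Grin2c rose, from 35.0 to 48.1 CPM in sham mice (median 39.7) against 40.3 to 57.7 CPM in TBI mice (median 48.0), with overlap (log2 fold change 0.23, SE 0.08, adjusted p = 0.0319, edgeR). Gria3 had −0.18 (SE 0.06, adjusted p = 0.0447, edgeR) and Grin2a −0.63 (SE 0.22, adjusted p = 0.0458), both with overlapping groups. Scaled to neuron markers, Grin1 (−0.097), Gria3 (0.040) and Grin2a (−0.41) were no longer called, while Grin2c stayed higher and Gria2 was called higher (0.13, adjusted p = 0.0336, edgeR). The calls of Gria3, Grin2a and Grin2c also depended on which mice were included. Gria3 was no longer called when sham replicate 1, 3, 4, 5, 7 or 8 or TBI replicate 2, 4, 7 or 8 was left out (log2 fold change −0.21 to −0.13 over all mice left out), Grin2a without sham replicate 1, 3, 4, 5, 6 or 8 or TBI replicate 1, 2, 3, 4 or 8 (−0.81 to −0.51), and Grin2c without sham replicate 3, 5 or 7 or TBI replicate 5, 6 or 8 (0.19 to 0.27).

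In E3/Abca1+/- mice the sham and TBI mice did not overlap in Grin1 or Gria3. The share of all genes without overlap between these groups is not given here, so the separation is only a description. Grin1 ran from 278 to 326 CPM in sham mice (median 291) and from 241 to 272 CPM in TBI mice (median 245), the highest TBI value being 1 mouse apart from the others at 241 to 249 CPM. The log2 fold change was −0.25 (SE 0.05, adjusted p = 0.000799, edgeR). Gria3 ran from 304 to 333 CPM in sham mice (median 320) and from 253 to 303 CPM in TBI mice (median 279), a log2 fold change of −0.18 (SE 0.05, adjusted p = 0.00938, edgeR). Both calls held whichever of the 13 mice was left out, but both were lost with scaling to neuron markers (Gria3 0.014, Grin1 −0.046). On that scale Gria1 (0.26), Gria2 (0.13) and Grin3a (0.27) were called instead, all higher.

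In E4/Abca1+/+ mice, Grin1 was the 1 member called, at 273 to 319 CPM in sham mice (median 282) and 205 to 298 CPM in TBI mice (median 248), with 6 of 7 TBI mice below every sham mouse. The log2 fold change was −0.21 (SE 0.06, adjusted p = 0.0342, edgeR). The call was lost without any of the 7 sham mice or without TBI replicate 4, 5, 6 or 7 (log2 fold change −0.26 to −0.17 over all mice left out). It was also lost with thinning to equal depth, which left 0 of 10 members called (Grin1 −0.20, adjusted p = 0.0581, edgeR), and with scaling to neuron markers (Grin1 −0.022), where Grin2c and Grin3a were called higher. With sex as a covariate 5 members were called, adding Gria2, Gria3, Gria4 and Grin2c.

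In E4/Abca1+/- mice, Grin2a and Grin2b had their largest fold changes and no overlap between sham and TBI mice. For these groups, too, the share of all genes without overlap is not given here. Grin2a ran from 24.0 to 45.4 CPM in sham mice (median 31.2) and from 11.6 to 23.6 CPM in TBI mice (median 18.3), a log2 fold change of −0.83 (SE 0.15, adjusted p = 0.000387, edgeR). Grin2b ran from 89.8 to 158 CPM in sham mice (median 125) and from 39.7 to 88.6 CPM in TBI mice (median 73.4), a log2 fold change of −0.86 (SE 0.17, adjusted p = 0.000879, edgeR). Scaled to neuron markers they had −0.54 (adjusted p = 0.0125) and −0.56 (adjusted p = 0.0202) in edgeR.

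Gria3 did not overlap between the E4/Abca1+/- groups either, but only narrowly. It ran from 317.5 to 369 CPM in sham mice (median 333) and from 253 to 317.2 CPM in TBI mice (median 280). The highest TBI value was that of replicate 8, the library lowest in hippocampus markers. The share of all genes without overlap is not given here, so this is only a description. The log2 fold change of Gria3 was −0.30 (SE 0.05, adjusted p = 0.00024, edgeR). Gria2 had −0.22 (SE 0.05, adjusted p = 0.00135, edgeR), Grin1 −0.33 (SE 0.08, adjusted p = 0.0047) and Gria4 −0.21 (SE 0.08, adjusted p = 0.0443), each with some overlap. Scaled to neuron markers, Gria2 had 0.053 and Gria4 0.060, and Gria3 and Grin1 were not called. The Gria4 call was lost without sham replicate 1, 3, 4, 6 or 7 or TBI replicate 1, 2, 3, 5, 6 or 7 (log2 fold change −0.25 to −0.17 over all mice left out), and the other 5 calls held whichever mouse was left out.

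**Figure D3:**
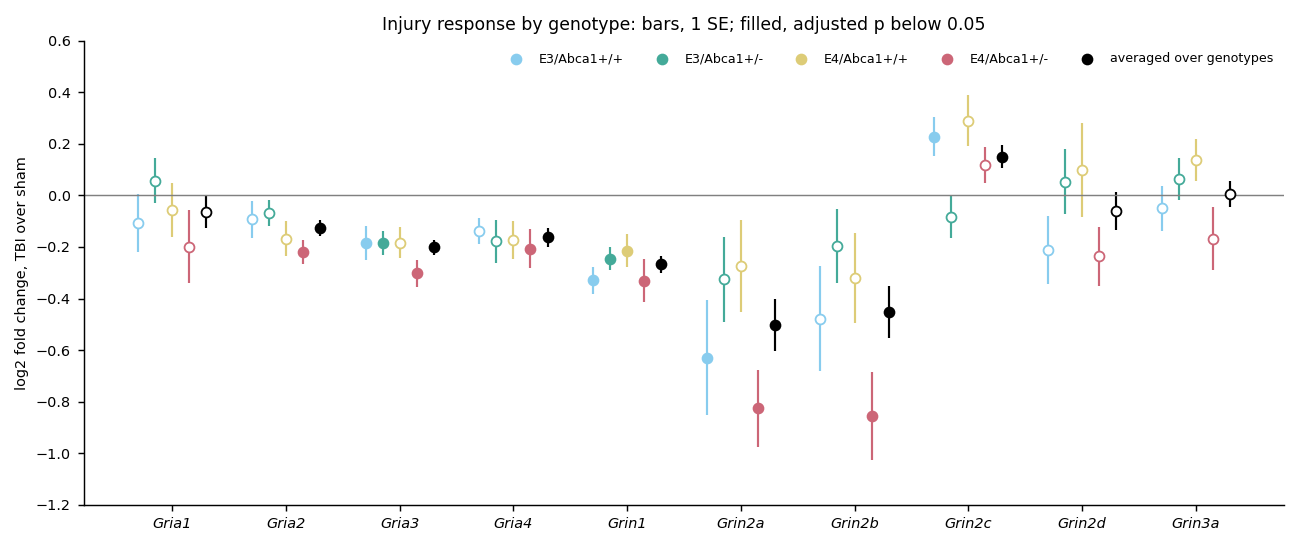
The y axis is the log2 fold change of TBI over sham for each member, averaged and in each of the 4 genotypes, with bars of 1 SE and filled points for an adjusted p below 0.05. The lowest points are Grin2a and Grin2b in E4/Abca1+/- mice, at −0.83 and −0.86.

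A larger response in 1 genotype was not shown, because the tests of the difference itself called 0 of 10 members. Here and below, the share of all genes is given for edgeR's adjusted p only, not for unadjusted p or DESeq2. For injury by isoform (APOE4 response minus APOE3 response) 0 of 10 were called by edgeR (all genes 0.00659%), 0 had an unadjusted p under 0.05 and DESeq2 called 0. For injury by Abca1 (Abca1+/- response minus Abca1+/+ response) 0 of 10 were called by edgeR (all genes 0%), 1 had an unadjusted p under 0.05, Grin2c with −0.24 (SE 0.09), and DESeq2 called 0. The Grin2c response was positive in both Abca1+/+ genotypes (0.23 and 0.29) and in E4/Abca1+/- (0.12), but −0.08 in E3/Abca1+/- mice, where 1 sham mouse was at 62.8 CPM.

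For injury by isoform by Abca1, the difference of these differences, 0 of 10 members were called by edgeR (all genes 0%), 1 had an unadjusted p under 0.05 and DESeq2 called 0. That member was Grin2a, at −0.82 (SE 0.41, adjusted p = 0.979, edgeR), and Grin2b had −0.78 (SE 0.40, adjusted p = 0.979). The strong response of Grin2a and Grin2b in E4/Abca1+/- mice was therefore not distinguished from those of the other genotypes by this test, and the SE of 0.41 for Grin2a was larger than its response in E3/Abca1+/- (−0.33) and E4/Abca1+/+ mice (−0.27).

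Loss of 1 Abca1 copy was compared within isoform and injury status, since the study asked how Abca1 haplodeficiency acts with each isoform. In APOE3 sham mice 0 of 10 members were called by edgeR (all genes 2.20%), with 2 at an unadjusted p under 0.05 and 1 called by DESeq2, Gria2. Gria2 had 826 CPM as the median of E3/Abca1+/- sham mice (758 to 871) and 912 CPM in E3/Abca1+/+ sham mice (793 to 978), a log2 difference of −0.13 (SE 0.04). In injured APOE3 mice 0 of 10 were called (all genes 0.178%), with 1 at an unadjusted p under 0.05 and 0 by DESeq2. In APOE4 sham mice 0 of 10 were called (all genes 0.903%), with 0 at an unadjusted p under 0.05 and 0 by DESeq2.

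In injured APOE4 mice edgeR called 0 of 10 members (all genes 1.39%), 4 had an unadjusted p under 0.05, and DESeq2 called 3, Grin1, Grin2a and Grin2b. The shares of all genes at an unadjusted p under 0.05 and by DESeq2 are not given here, so these counts are only a description. Grin2a ran from 11.6 to 23.6 CPM in E4/Abca1+/- TBI mice (median 18.3) and from 17.7 to 36.4 CPM in E4/Abca1+/+ TBI mice (median 30.7). Grin2b ran from 39.7 to 88.6 CPM (median 73.4) and from 63.3 to 124 CPM (median 112) in the same groups. The log2 difference was −0.57 for Grin2a (SE 0.17, adjusted p = 0.0940, edgeR) and −0.57 for Grin2b (SE 0.17, adjusted p = 0.101), with DESeq2 adjusted p = 0.0262 and 0.0286. Both pairs of groups overlapped.

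Grin1 ran from 182 to 247 CPM in E4/Abca1+/- TBI mice (median 217) and from 205 to 298 CPM in E4/Abca1+/+ TBI mice (median 248), a log2 difference of −0.24 (SE 0.08, adjusted p = 0.110 from edgeR and 0.0452 from DESeq2). Averaged over the 4 pairs of groups, 0 of 10 members differed with Abca1 copy number by edgeR (all genes 17.9%), 3 had an unadjusted p under 0.05 and DESeq2 called 0. The largest of these averaged differences was Grin2b at −0.24 (SE 0.10, adjusted p = 0.0906, edgeR). Since the Abca1+/- libraries were the deeper ones, these values compare depth as well as genotype.

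Grin3a lies on the same chromosome as Abca1, at chr4:49661611-49846023 (mm10), 3.18 Mb from it, where sequence linked to the targeted allele can differ between genotypes. Grin3a was not called for Abca1 copy number (log2 difference 0.02, SE 0.05, adjusted p = 0.819, edgeR). Of the 2 genes of the table between them, 1 was called, Nipsnap3b at 0.11 (SE 0.03, adjusted p = 0.0172, edgeR).

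APOE4 and APOE3 mice differed in 1 of 10 members in the average over groups (all genes 15.0%), the interneuron subunit gene Grin2d. Grin2d had a lowest, median and highest level of 7.15, 9.44 and 13.5 CPM in APOE3 mice (n = 29) and 4.94, 7.02 and 13.1 CPM in APOE4 mice (n = 29). The ranges overlapped while the medians were apart. The log2 difference was −0.35 (SE 0.07, adjusted p = 0.000449, edgeR).

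Group by group, Grin2d in APOE4 minus APOE3 mice had a log2 difference of −0.36 in Abca1+/+ sham mice (SE 0.14), −0.06 in Abca1+/+ TBI mice (SE 0.17), −0.36 in Abca1+/- sham mice (SE 0.10) and −0.64 in Abca1+/- TBI mice (SE 0.14). Only the 2 Abca1+/- contrasts passed the test (adjusted p = 0.0494 in sham and 0.0227 in TBI mice, edgeR). The sham call ended with neuron-marker scaling, thinning, sex as a covariate or a single fit over 58 mice, and the TBI call with neuron-marker scaling or thinning. In Abca1+/+ TBI mice the APOE3 group held 1 mouse at 12.5 CPM against 7.40 to 9.14 CPM in the others. In Abca1+/- TBI mice Grin2d ran from 4.94 to 8.26 CPM with APOE4 (median 6.44) and from 7.29 to 13.5 CPM with APOE3 (median 9.75), so the groups overlapped slightly.

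In members called, Abca1+/+ sham mice had 0 of 10 (all genes 0.349%; 1 at an unadjusted p under 0.05, 0 by DESeq2) and Abca1+/+ TBI mice 0 of 10 (all genes 0.211%; 1 at an unadjusted p under 0.05, 0 by DESeq2). Abca1+/- sham mice had 1 of 10, Grin2d (all genes 5.13%), and Abca1+/- TBI mice 2 of 10, Grin2d and Grin1 (all genes 2.90%). Grin1 was lower with APOE4 in Abca1+/- TBI mice, at 182 to 247 CPM (median 217) against 241 to 272 CPM (median 245), a log2 difference of −0.23 (SE 0.06, adjusted p = 0.0489, edgeR), and this call ended with neuron-marker scaling, thinning or DESeq2 size factors.

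Grin2d lies at chr7:45831883-45871194 (mm10) on the chromosome of the replaced Apoe gene, 26.1 Mb from it. Of the 322 genes of the table between the 2 loci, 67 were called for isoform (20.8%, against 15.0% of all genes), 27 higher and 40 lower with APOE4. Whether linked sequence or the isoform accounts for the Grin2d values was not tested.

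For Grin1 the values between Abca1 genotypes had opposite signs in APOE3 and APOE4 mice. The isoform by Abca1 difference of Grin1 was −0.29 (SE 0.07, adjusted p = 0.0620, edgeR), the only 1 of 10 members with an unadjusted p under 0.05, and 0 of 10 were called (all genes 0.0659%) while DESeq2 called 1, Grin1, at an adjusted p of 0.0135. The Abca1+/- minus Abca1+/+ log2 values behind it were 0.08 in APOE3 sham, 0.15 in APOE3 TBI, −0.12 in APOE4 sham and −0.24 in APOE4 TBI mice. It passed in edgeR with sex as a covariate (adjusted p = 0.0450) and without E4/Abca1+/- TBI replicate 8 (adjusted p = 0.0496).

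Between the sexes 1 of 10 members differed (all genes 10.1%). Grin1 ran from 182 to 326 CPM in 28 females (median 241) and from 203 to 336 CPM in 30 males (median 274), with broad overlap. The female minus male log2 difference was −0.10 (SE 0.03, adjusted p = 0.0275, edgeR). Without E4/Abca1+/- TBI replicate 8, Gria1 (adjusted p = 0.0161) and Gria4 (adjusted p = 0.0319) were also called in edgeR, which brings the count to 3. The X-linked Gria3 had 0.03 (SE 0.03, adjusted p = 0.511, edgeR). The injury response differed with sex in 0 of 10 members by edgeR (all genes 0%), with 0 at an unadjusted p under 0.05 and 0 by DESeq2.

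The balance within each receptor class was read as a ratio of counts in each mouse. The log2 ratio of Grin2a to Grin2b, which separates later from earlier NMDA receptors, was −1.84 ± 0.18 (SD, n = 29) in sham mice and −1.92 ± 0.25 (n = 29) in TBI mice. The difference averaged over genotypes was −0.07 (two-sided permutation test within genotypes, p = 0.206, adjusted over the 2 ratios p = 0.331). The log2 ratio of Gria2 to Gria1 was 0.25 ± 0.16 in sham mice and 0.21 ± 0.24 in TBI mice, a difference of −0.051 (p = 0.331, adjusted p = 0.331, same two-sided permutation test). Within genotypes the 8 exact permutation tests gave adjusted p-values of 0.559 or more.

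Seen as shares of the 4 GluN2 genes per length, Grin2c made up 38.4 ± 5.65% (SD, n = 29) in sham mice and 48.4 ± 7.49% in TBI mice, while Grin2a made up 32.8 ± 3.62% and 26.0 ± 6.10% and Grin2b 21.6% and 17.8%. The highest Grin2c share was 49.7% in sham mice and 65.2% in TBI mice, and the 2 ranges overlapped. These shares were not tested, and they rest on the transcript chosen for each gene, since Grin2a is read over 4395 bases with the longest RefSeq-matched transcript and over 17933 bases with all exons.

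Members varied together across mice in ways that the groups do not explain. After the group means were removed, Grin2a and Grin2b had a Pearson r of 0.86 over the 58 mice, Gria2 and Gria3 0.77, and Gria1 and Gria4 −0.64. These points share libraries and dissections and are given as a description. Gria1 followed hippocampus markers (9 genes, r = 0.60, and 0.46 without the 2 mice farthest from the median) and ran against cortex markers (7 genes, r = −0.69, and −0.72). Gria4 did the reverse, with r = 0.67 for cortex markers and −0.46 for hippocampus markers.

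Some markers of brain regions also differed between sham and TBI mice. Summed cortex markers ran from 389 to 598 CPM in sham mice and from 274 to 511 CPM in TBI mice. Of these, 5 of 7 were called lower and 0 higher (1 lower and 1 higher scaled to neuron markers). Summed hippocampus markers ran from 318 to 468 CPM and from 245 to 524 CPM. Of these, 1 of 9 was called higher and 3 lower (2 higher and 3 lower scaled to neuron markers). Thalamus is not among the tissues the study named as frozen. Its summed markers had a mean of 100 CPM in sham mice and 102 CPM in TBI mice. Single thalamus markers went both ways, 4 of 6 called higher and 2 lower (4 higher and 1 lower scaled to neuron markers). The part of these differences in the values of Gria1 and Gria4 was not tested.

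Of the members, Grin2b and Grin2a moved most closely with the long transcripts of each library. Over 768 genes with transcripts of at least 8000 bases, members left out, the mean log2(CPM + 1) of a mouse had a Pearson r of 0.74 with Grin2b and 0.61 with Grin2a after group means were removed (n = 58; 0.68 and 0.59 without the 2 farthest mice). It was 0.48 with Grin3a, 0.39 with Gria2, 0.32 with Gria3 and 0.24 with Gria1, and between −0.20 and −0.05 with Gria4, Grin1, Grin2c and Grin2d. The transcript taken for Grin2a, of 4395 bases, is shorter than 8000 bases, but all its annotated exons together hold 17933 bases. The median log2 fold change of these genes after TBI was −0.10 in E3/Abca1+/+, −0.06 in E3/Abca1+/-, −0.10 in E4/Abca1+/+ and −0.18 in E4/Abca1+/- mice, against −0.86 to −0.20 for Grin2b. In injured APOE4 mice the long genes had a median of −0.16 between Abca1 genotypes. The part of this in the values of Grin2a and Grin2b was not tested.

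**Figure D4:**
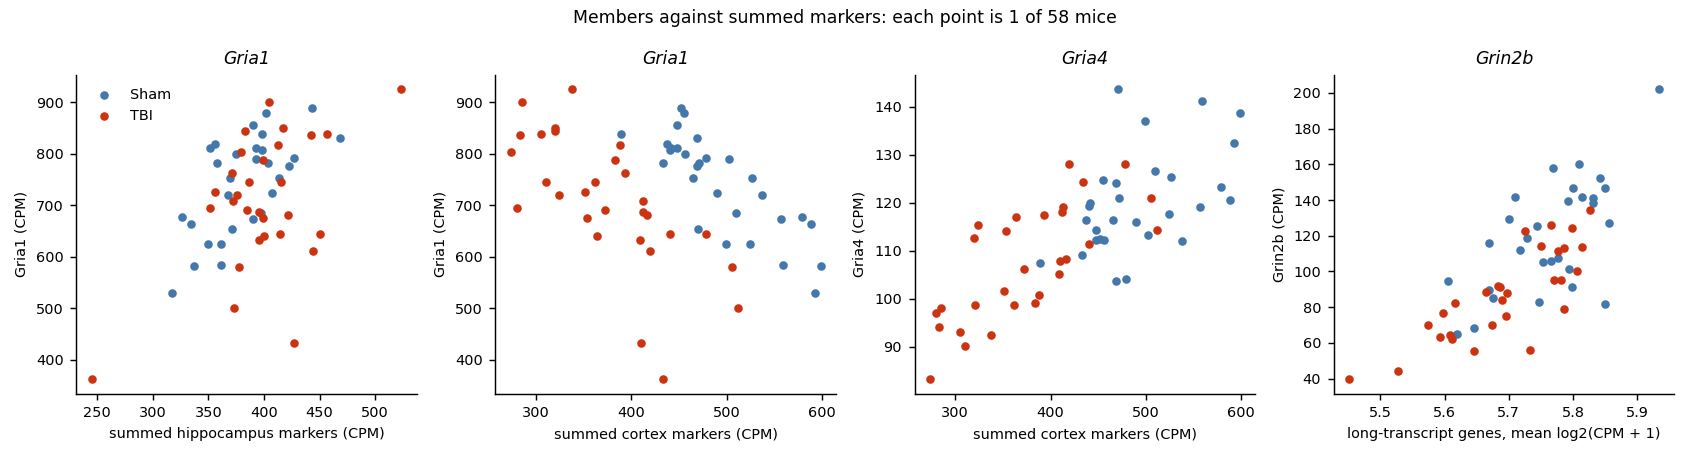
Each point is 1 of 58 mice (blue sham, red TBI), with the CPM of Gria1, Gria4 or Grin2b on the y axis and a summed marker level (CPM) or the mean log2(CPM + 1) of 768 long-transcript genes on the x axis. The mouse at the lower left of the first panel is E4/Abca1+/- TBI replicate 8, at 362 CPM of Gria1 and 245 CPM of hippocampus markers.

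The genes most like Gria1 and Gria4 across the 58 mice, after group means were removed, were Pcdh20 (r = 0.97) and Tmem65 (r = 0.79). For the NMDA genes they were Tmem151a for Grin1 (0.83), Sorl1 for Grin2a (0.90), Glg1 for Grin2b (0.89), Cacng7 for Grin2c (0.66), Fgfr3 for Grin2d (0.65) and Chd3 for Grin3a (0.69). Of these 8 members, Grin2c, Grin2d and Grin3a had the lowest values. The likeness is a description over shared libraries.

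The proteins that hold and move these receptors were examined from lists of related genes, in the same averaged injury comparison. Scaled to neuron markers, 12500 of 15171 genes were called and the median over all genes was 0.22. The median of each list of related genes below was under that value. Of 15 postsynaptic scaffold genes, 14 fell and 0 rose (median log2 fold change −0.17), whereas 2 were lower and 5 higher when scaled to neuron markers (median 0.04). They included Dlgap1 (−0.25), Homer1 (−0.60), Dlgap2 (−0.37) and Dlg4, which encodes PSD-95 (−0.13). Homer3, named after its values were seen, was the 1 not called (0.21, adjusted p = 0.243, edgeR). Of 18 AMPA auxiliary subunit genes, 9 fell and 1 rose (median −0.11), a called share close to the 53.3% of all genes, against 6 lower and 9 higher scaled to neuron markers (median 0.10). Stargazin, Cacng2, had −0.40, Syndig1 −0.53 and Cacng3 −0.29. Cacng5 rose by 0.24, and Cacng8, the main auxiliary subunit of hippocampus, had −0.11 (adjusted p = 0.120, edgeR).

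Of 14 genes for kinases, phosphatases, editing and the co-agonist, 9 fell and 1 rose (median −0.19), against 3 lower and 6 higher scaled to neuron markers (median 0.02). The genes that fell included Adarb1, the enzyme that edits Gria2 RNA (−0.29, SE 0.03, adjusted p = 1.13e-14, edgeR), Camk2g (−0.31), Prkcb (−0.32) and Camk2a (−0.19), whereas Camk2d rose by 0.16. Of 8 genes for receptor trafficking and clustering, 5 fell and 0 rose (median −0.09), a called share near the same 53.3%, against 1 lower and 5 higher scaled to neuron markers (median 0.12). Nptx2, a secreted protein that clusters AMPA receptors, had −0.64, Grip2 −0.28 and Nsf −0.13.

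The other glutamate receptor genes were read in the same comparison. Of 9 kainate and delta receptor genes and their auxiliary subunits, 3 fell, Neto2 (−0.18), Grik3 (−0.20) and Grid1 (−0.11), and 0 rose (median −0.08), against 0 lower and 6 higher scaled to neuron markers (median 0.13). Of 7 metabotropic receptor genes in the table, 5 fell and 0 rose (median −0.25), against 1 lower and 3 higher scaled to neuron markers (median −0.04). Those with the smallest p were Grm3 (−0.25), Grm8 (−0.33) and Grm4 (−0.45).

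**Figure D5:**
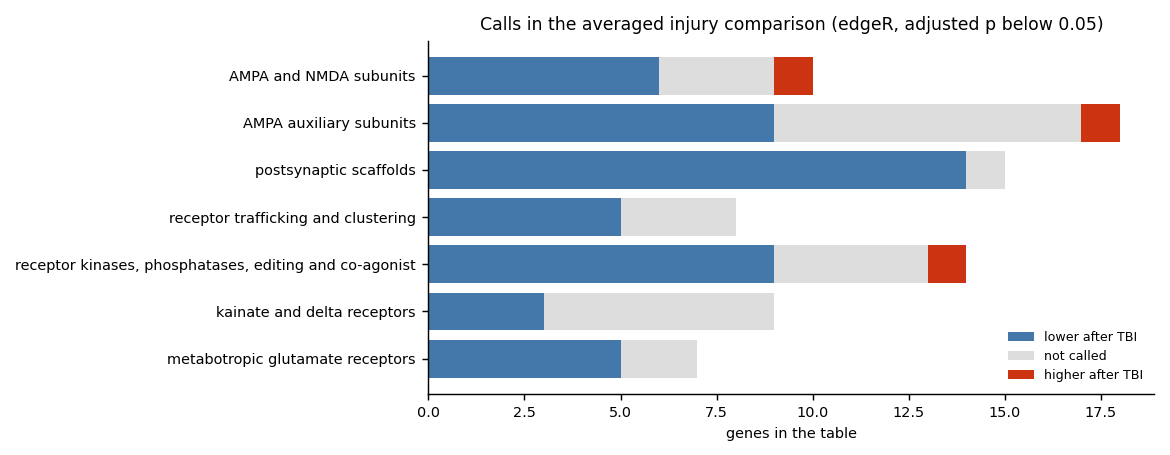
Bars count the genes of each list that were lower (blue), not called (grey) or higher (red) after TBI in the averaged comparison, at an adjusted p below 0.05 in edgeR. Among the lists drawn, scaffolds had the largest called share, 14 of 15, all lower, while scaled to neuron markers (not drawn) 2 were lower and 5 higher.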

How the data were processed

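The authors deposited read counts per gene, not normalized, for 58 mice (mm10, Subread 1.5.0 and featureCounts in the submitters' processing notes, with the strand setting not given in the sources used here). The table held 15171 genes after 2 blank lines were removed, 23 symbols turned into dates were renamed from their identifiers, and 98.9% of identifiers matched RefSeq. Members and gene lists were chosen with earlier results of these data known.

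Counts were scaled by TMM (factors 0.954 to 1.038), and filterByExpr over 8 groups removed 0 genes. Groups were compared in R 4.3.3 with edgeR 4.0.16 (quasi-likelihood test, only the groups compared, or all 58 mice for averages and interactions), with Benjamini-Hochberg adjustment over 15171 genes and a threshold of 0.05. "Called" means past it. Genes named besides the 10 members followed a rule on p-values, likeness or position, or were fixed genes such as Adarb1, except Homer3. Count ratios were tested with 100000 permutations within genotypes. DESeq2 1.42.0, other scalings, thinning to 4421308 reads, a minimum of 10 counts in every mouse (12401 genes), sex as covariate, and leaving out mice were tried as alternatives. Lengths from the union of all exons (6 per-length levels moved) and a filter over the 2 groups compared were added after seeing the data. The nearest genes of Gria2 and Gria3 are not reported here. The tests were tried on simulated counts. No pair of the 183 pairs of mice within groups had identical counts.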

Additional observations from a re-analysis of the deposited data

Results flagged for a closer look

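Of 80 combinations of a member and a group, 7 held a mouse whose gap to the nearest other mouse was large for the range of its group (Dixon's criterion). Chance flags about 1 in 20 groups. Gria1 was 362 CPM in E4/Abca1+/- TBI replicate 8 (others 633 to 844 CPM) and 529 CPM in E4/Abca1+/- Sham replicate 1 (others 789 to 879 CPM). Summed hippocampus markers in these mice were 245 and 318 CPM. Gria4 was 141 CPM in E3/Abca1+/+ Sham replicate 2 (others 112 to 125 CPM). Grin1 was 272 CPM in E3/Abca1+/- TBI replicate 2 (others 241 to 249 CPM). Grin2c was 62.8 CPM in E3/Abca1+/- Sham replicate 2 (others 41.9 to 47.8 CPM) and 47.0 CPM in E4/Abca1+/+ Sham replicate 5 (others 38.4 to 42.0 CPM). Grin2d was 12.5 CPM in E3/Abca1+/+ TBI replicate 8 (others 7.40 to 9.14 CPM), the mouse with the lowest summed neuron markers (8702.55 CPM) and the highest summed astrocyte markers (11141.5 CPM). The part of the markers in these values was not tested.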

How the results depend on the processing

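The 7 members called in the averaged injury comparison were also called under the 7 other alternatives run for it, but with neuron-marker scaling 6 members were called, 4 of them higher, against 12500 of 15171 genes. The averaged Grin2d isoform call held under all 8. Numbers of members called after injury moved in E3/Abca1+/+ from 4 to 2 with neuron-marker scaling, a minimum of 10 counts or thinning, and in E3/Abca1+/- from 2 (lower) to 3 other members (higher) with neuron-marker scaling. In E4/Abca1+/+ they moved from 1 to 2 with neuron-marker scaling, 0 with thinning, 5 with sex as covariate, and 3 with the DESeq2 test or a single fit, and in E4/Abca1+/- from 6 to 3 with neuron-marker scaling. Leaving out 1 mouse gave 1 to 4, 2 to 3, 0 to 4 and 5 to 6 calls in E3/Abca1+/+, E3/Abca1+/-, E4/Abca1+/+ and E4/Abca1+/-. For Abca1 copies, DESeq2 called 1 in APOE3 sham and 3 in APOE4 TBI mice, and a single fit 1 in the latter. For isoform in Abca1+/- sham mice, 1 call became 0 with neuron-marker scaling, thinning, sex as covariate or a single fit. In Abca1+/- TBI mice, 2 calls became 1 with DESeq2 size factors and 0 with neuron-marker scaling or thinning. The isoform by Abca1 count rose from 0 to 1 without E4/Abca1+/- TBI replicate 8, with sex as covariate or with DESeq2, and the sex count of 1 became 0 with neuron-marker scaling or thinning and 3 without that mouse.

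Neuron-marker scaling reversed the injury log2 value of Gria3 in E3/Abca1+/+ (0.040) and E3/Abca1+/- (0.014), of Gria2 (0.053) and Gria4 (0.060) in E4/Abca1+/-, and in the average of Gria1 (0.15), Gria2 (0.085), Gria3 (0.0091), Gria4 (0.047) and Grin2d (0.15). By construction that scaling moved the median of all genes to 0.22. Grin3a, near 0, became −0.0065 with DESeq2 size factors, −0.016 with thinning and −0.0056 with the DESeq2 test. Other causes were not tested. No paired analysis was run, because each library was a separate mouse and the labels name no pairs. The labels give no replicate number, and numbers here only name mice. Depth differed with Abca1 genotype. Thinning to equal depth left 0 members called in each Abca1 contrast, but the main fit had called 0 as well and thinning removes reads. It therefore does not separate depth from genotype.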
